A study of Homo sapiens with 2 samples.

Results

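The lung mesenchyme transcription factors described here are 10 genes, TBX2, TBX3, TBX4, TBX5, FOXF1, TCF21, MEOX2, TWIST1, TWIST2 and PRRX1, chosen by name from the 21743 genes that could be named on the array. Every probe whose RefSeq accession belongs to one of them was taken, which gave 15 probes on 24 spots. They were measured in MRC-5 cells, a cell line of fibroblasts from human fetal lung, to ask which genes depend on periostin, a matricellular protein of the fibroblast matrix encoded by POSTN. RNA of cells transfected with periostin siRNA, at 10 nM for 48 h, was compared with RNA of cells transfected with control siRNA, for which the labels give no dose or time. Each condition was 1 sample on 1 single-colour Agilent array, so there is no replicate, no test between the conditions and no p-value, and a difference between the cultures cannot be told apart from an effect of the siRNA.

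These factors set up and maintain the mesenchyme of the lung, the tissue from which fibroblasts, airway smooth muscle and pericytes arise. T-box proteins bind DNA through a shared T-box domain. TBX4 and TBX5 promote branching of the lung bud through FGF10 and WNT2, whereas TBX2 and TBX3 are mostly repressors that keep mesenchymal cells dividing by holding down inhibitors of the cell cycle. FOXF1 is a forkhead factor that answers to hedgehog signals from the epithelium. TCF21, TWIST1 and TWIST2 are basic helix-loop-helix (bHLH) proteins that bind DNA with an E-protein partner, and MEOX2 and PRRX1 are homeobox factors of limb, trunk and lung mesenchyme.

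Of the 10 factors, 9 were well above background on both arrays, as flagged by the scanner software, and MEOX2 was not well above background on either. PRRX1, TBX4, TCF21 and TBX2 were lower with periostin siRNA by 2.10-fold to 2.59-fold. TWIST1 and FOXF1 were lower by less, TBX5 and the brightest of the 3 TWIST2 probes lay within 1 spot error of 0 on the log2 scale, and TBX3 was slightly higher. None of the 9 was past the 3-fold threshold that the study applied in either direction, against 2.75% of all 16052 genes with a ratio that were lower and 3.37% that were higher by more than 3-fold. At 2-fold, 4 of the 9 were lower and 0 were higher, against 6.42% of all genes lower and 7.97% higher. The median log2 ratio of the 9 was -0.51, with 7 below 0 and 2 above, while the median of all genes was 0.06 and 45.5% of them lay below 0. Because the 10 genes were chosen with earlier results of these arrays known, these counts are a description of the list.

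The values below are spot intensities, background-subtracted by the scanner software and scaled so that the 75th percentile of all non-control spots is 377 on both arrays. A ratio is periostin siRNA over control siRNA on the log2 scale. Its error is the error that the software propagates for a single spot or, for a probe printed 10 times, the SD over its 10 spots, and neither covers the difference between cultures. Over 667 probes printed 10 times and well above background in every spot, the pooled SD of the log2 ratio between spots was 0.12. No spot of the 10 factors carried an outlier flag and no spot on either array was saturated. POSTN itself had 1 spot, whose scaled signal was 2638 in the control and 279.8 after periostin siRNA. Its log2 ratio of -3.24 ± 0.20, or 9.43-fold lower, matches the labels. Signals of different probes depend on the probe, so they do not rank genes by expression. Sums of signals over marker genes, given below, are weighted towards their brightest probes.

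**Figure D1:**
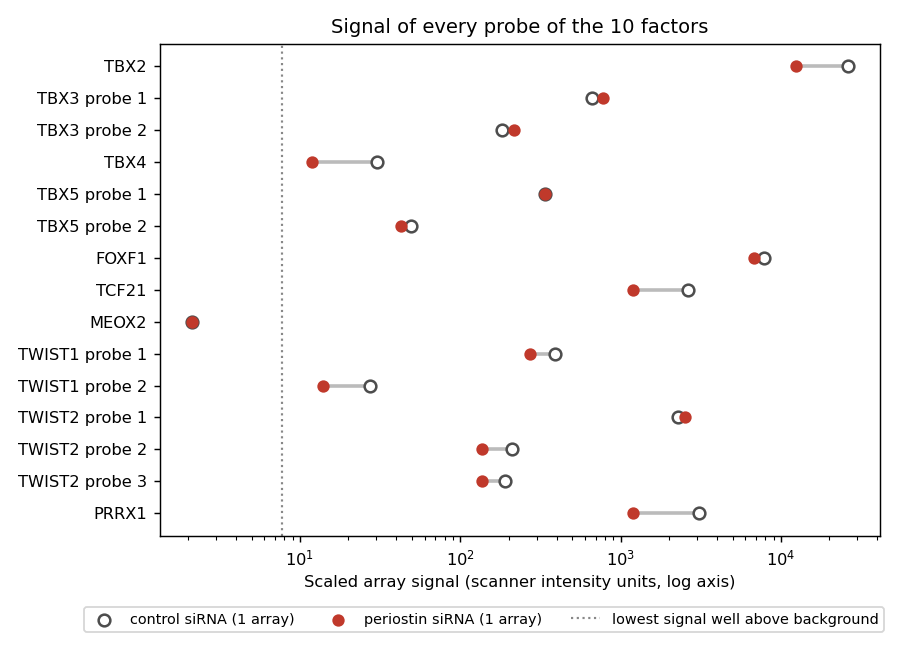
Scaled signal of every probe of the 10 factors on the control siRNA array (open circles) and the periostin siRNA array (filled circles), on a log axis; the dotted line is the lowest signal well above background. PRRX1, TBX4, TCF21 and TBX2 show the widest gaps with the filled circle to the left, the circles of TBX3 lie the other way round, and MEOX2 lies left of the dotted line on both arrays.

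With the software's background subtraction, the T-box factors split into a lower pair and a pair near 0. TBX2, the repressor that acts on CDKN1A and CDKN2A in other systems, had a scaled signal of 26080.4 with control siRNA and 12415 with periostin siRNA. Its log2 ratio was -1.07 ± 0.20 (propagated spot error, 1 spot), and 5.63% of all genes had a ratio as low or lower. Probes printed 10 times and of like brightness had an SD between spots of 0.05 in this range. TBX3, the closest relative of TBX2, was measured by a pair of probes. The brighter one gave 666 with control siRNA and 779 with periostin siRNA, and its log2 ratio was 0.23 ± 0.20. The dimmer one gave 182 and 217, a log2 ratio of 0.26 ± 0.20. The probes of TBX3 thus differed from each other by less than their combined error of 0.29, and TBX3 was the highest of the 9 factors.

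TBX4, which marks the mesenchyme of the lung and the hindlimb, was dim, at 30.3 with control siRNA and 11.9 with periostin siRNA. Its log2 ratio of -1.35 ± 0.31 came from 1 spot, and the lowest signals well above background were 7.55 and 7.77 after scaling. Probes of like brightness had an SD of 0.30 between spots, so the value of TBX4 is the least precise of the 9. When the background was instead modelled by normexp, with 50 added to each signal, it was -0.40. TBX5, which acts together with TBX4 in lung branching, gave 338 and 336 with its brighter probe, a log2 ratio of -0.01 ± 0.20, and 49.3 and 42.4 with its dimmer probe, a log2 ratio of -0.22 ± 0.22. Neither probe of TBX5 was further from 0 than its error.

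A difference between the ratios of a pair of genes does not depend on how the arrays are scaled by a constant. The log2 ratio of TBX2 minus that of TBX3 was -1.30 ± 0.29 (combined spot error), which is a 2.46-fold difference. This difference lay between -1.31 and -1.26 under all settings run. Most of these settings could not change it, because they only rescale the arrays by a constant or filter or summarize spots. The same difference for TBX4 minus TBX5 was -1.34 ± 0.37, from -1.50 to -0.34 over the settings, with the normexp correction giving the value nearest to 0. With the software's background subtraction, TBX2 and TBX4 differed from each other by 0.28 ± 0.37, and TBX3 and TBX5 by 0.23 ± 0.29. Both differences were less than their combined error. Under the normexp correction TBX2 was at -1.02 and TBX4 at -0.40, so the closeness of TBX2 and TBX4 depends on the setting. TBX2 and TBX4 are neighbours on chromosome 17 and TBX3 and TBX5 are neighbours on chromosome 12. The lower pair and the pair near 0 are thus also the chromosomal pairs, but this grouping rests on 1 dim spot of TBX4 and on the background subtraction.

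**Figure D2:**
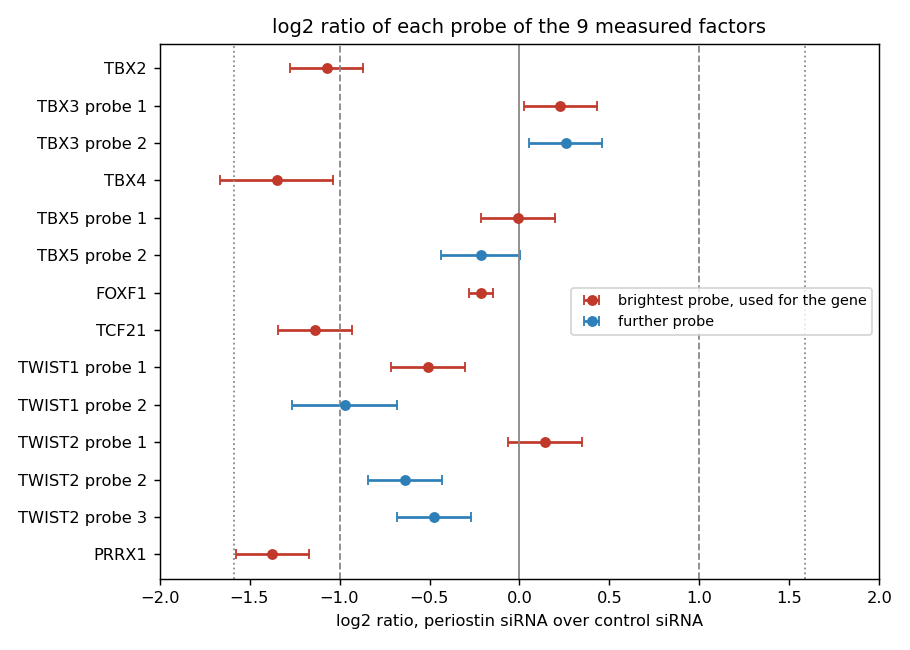
log2 ratio (periostin over control siRNA) for each of the 14 probes with a ratio; bars are the propagated spot error, or for FOXF1 the SD over 10 spots, dashed lines mark 2-fold and dotted lines 3-fold. PRRX1, TBX4, TCF21 and TBX2 lie left of the 2-fold line and none reaches the 3-fold line, while the further probes of TWIST2 lie left of its brightest probe.

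TCF21, a bHLH factor of lipofibroblast, epicardial and kidney stromal precursors, had a scaled signal of 2625 with control siRNA and 1195 with periostin siRNA. Its log2 ratio was -1.14 ± 0.20 (propagated spot error, 1 spot), and 5.05% of all genes were as low or lower. PRRX1, the paired-related homeobox factor of fibroblast and limb mesenchyme, had a signal of 3077 with control siRNA and 1188 with periostin siRNA, and its log2 ratio of -1.37 ± 0.20 was the lowest of the 9 factors, with 3.71% of all genes as low or lower. The ratios of PRRX1 and TBX4 went beyond 2-fold by 0.37 and 0.35 on the log2 scale, more than their errors. For TBX4 this held only without the normexp correction, under which its ratio was -0.40, inside 2-fold. Those of TCF21 and TBX2 went beyond 2-fold by 0.14 and 0.07, less than their propagated spot errors of 0.20. These margins were larger than the SD between spots of repeatedly printed probes of like brightness, 0.055 for TCF21 and 0.049 for TBX2. Neither the propagated error nor this SD covers the difference between cultures. Whether these genes lie inside or outside 2-fold thus cannot be told from 1 array per condition.

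The start regions of these genes are shown as RefSeq gives them for GRCh38.p14, 250 bases before to 50 after an annotated start, with TCF21 and PRRX1 for the factors that were lower by more than 2-fold and TBX5 for those near 0. Such windows were found for 6 of the 10 factors, TBX4, TBX5, TCF21, MEOX2, TWIST2 and PRRX1. Capitals mark matches, on either strand, to the E-box CANNTG bound by bHLH proteins, the T-box half-site GGTGTGA, the homeobox site TAATTA or the forkhead site TGTTTAC. The windows are TCF21 at chr6:133888863-133889162 (plus strand), PRRX1 at chr1:170663881-170664180 (plus strand) and TBX5 at chr12:114408393-114408692 (minus strand).
TCF21: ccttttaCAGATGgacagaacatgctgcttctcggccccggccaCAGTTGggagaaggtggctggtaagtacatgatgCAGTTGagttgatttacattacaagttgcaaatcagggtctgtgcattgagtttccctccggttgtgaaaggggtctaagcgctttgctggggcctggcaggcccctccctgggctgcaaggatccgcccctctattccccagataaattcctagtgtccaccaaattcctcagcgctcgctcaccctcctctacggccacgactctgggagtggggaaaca
PRRX1: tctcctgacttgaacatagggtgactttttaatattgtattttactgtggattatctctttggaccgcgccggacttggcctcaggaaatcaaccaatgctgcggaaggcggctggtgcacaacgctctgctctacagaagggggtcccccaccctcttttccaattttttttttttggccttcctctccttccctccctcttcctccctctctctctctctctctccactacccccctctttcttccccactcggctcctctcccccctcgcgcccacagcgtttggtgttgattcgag
TBX5: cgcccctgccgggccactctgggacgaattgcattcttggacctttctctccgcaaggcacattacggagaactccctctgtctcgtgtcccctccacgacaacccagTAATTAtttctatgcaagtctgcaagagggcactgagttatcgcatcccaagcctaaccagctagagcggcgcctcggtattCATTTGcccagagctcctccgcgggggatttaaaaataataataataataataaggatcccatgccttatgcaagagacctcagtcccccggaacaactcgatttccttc
The TCF21 window held 3 E-boxes, CAGATG at 243 bases and CAGTTG at 206 and at 172 bases before the start, and 15.3% of all 35116 windows held at least 3. The PRRX1 window held none of these motifs. The TBX5 window held 1 E-box, CATTTG, at 60 bases and 1 homeobox site at 142 bases before the start, and the other TBX5 window held none. At least 1 E-box was present in 68.7% of all windows, the T-box half-site in 3.45%, the homeobox site in 4.84% and the forkhead site in 3.42%. The windows of TBX4 and MEOX2 held 1 E-box each, CACGTG and CATGTG, and that of TWIST2 held no match; the annotated start used for TBX4 lies 4066 bases inside the gene and that of PRRX1 lies 1363 bases inside it. A match is a run of letters and not a bound site.

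TWIST1 and TWIST2 are near relatives that repress epithelial genes and hold back differentiation of mesenchymal cells. The brighter probe of TWIST1 gave 389 with control siRNA and 273 with periostin siRNA, and its log2 ratio was -0.51 ± 0.20. The dimmer probe gave 27.5 and 14.0, a log2 ratio of -0.97 ± 0.29. Both probes were thus lower by more than their errors, and they differed from each other by 0.46 against a combined error of 0.36. TWIST2 had 3 probes that did not go the same way. The brightest, designed on the RefSeq transcript NM_001271893, gave 2271 and 2504, a log2 ratio of 0.14 ± 0.20. The other probes, both designed on NM_057179, gave 211 and 136 in one case and 190.3 and 137 in the other, with log2 ratios of -0.64 ± 0.21 and -0.47 ± 0.21. The brightest probe lay above these by 0.78 and 0.61, each with a combined error of 0.29, so the ratio of TWIST2 depends on the probe, and the mean over its 3 probes was -0.32. Between the brightest probes, the log2 ratio of TWIST1 minus that of TWIST2 was -0.65 ± 0.29, and with the mean over probes it was -0.42.

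FOXF1, the hedgehog-responsive factor of lung mesenchyme and its vessels, was the only one of the 10 whose probe was printed 10 times. Its spots ranged from 7479.8 to 8244 with control siRNA, with a median of 7801, and from 6496 to 7090.4 with periostin siRNA, with a median of 6771. The spots of the arrays did not overlap, and periostin siRNA was lower at 10 of 10 spot positions. Probes printed 10 times and of like brightness had an SD of 0.05 between spots, so even small ratios can separate the spots. How many other such probes separated in this way was not counted. The log2 ratio was -0.21 ± 0.07 (SD over 10 spots), a 1.16-fold difference, and 30.5% of all genes had a ratio as low or lower. With the arrays scaled on their medians it was -0.34. The spots are repeat measurements of 1 RNA, so their small spread says nothing about the spread between cultures. MEOX2, which restrains growth of vascular smooth muscle cells, had scaled signals of 2.13 and 2.14 and no ratio.

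**Figure D3:**
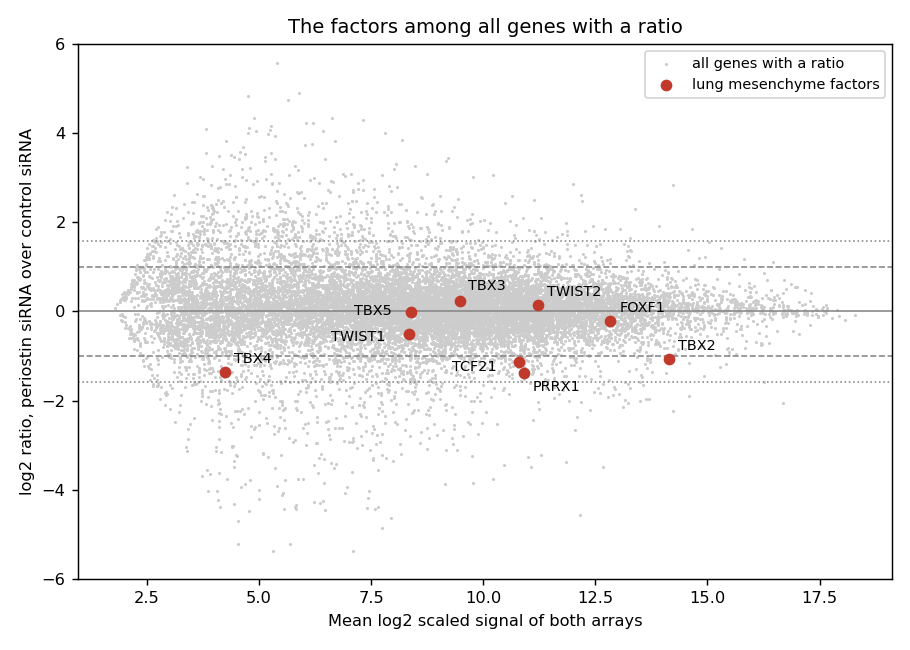
log2 ratio (periostin over control siRNA) against the mean log2 scaled signal of both arrays for all 16052 genes with a ratio (grey) and the 9 measured factors (red); dashed lines mark 2-fold and dotted lines 3-fold. The factors lie inside the 3-fold lines, and TBX4 sits at the dim end where the grey points spread most.

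Relatives of the factors showed no shared direction. Lists of related genes were described by counts and medians beside the median of all genes, with a gene well above background on 1 array alone entered at its bound. Of 13 other T-box genes, 4 could be measured and 9 were not well above background on either array, and none was past 2-fold. Of 14 other forkhead factors, 13 had a ratio with a median of 0.08, 3 lower and 2 higher by more than 2-fold. Of all genes, 6.42% were lower and 7.97% higher by more than 2-fold. FOXL2, 1 of the lower forkhead genes, was dim and at -0.29 under the normexp correction, inside 2-fold. FOXF2, the nearest relative of FOXF1, had a log2 ratio of -0.25 ± 0.04 (SD over 10 spots), similar in size to that of FOXF1. FOXS1, a forkhead factor of pericytes and smooth muscle, was well above background with periostin siRNA alone, at 85.5 against 5.10, and was at least 11.3-fold higher, but 2.05-fold higher under the normexp correction. Of 15 other mesenchymal homeobox factors, 9 had a ratio with a median of -0.02, 2 lower and 2 higher by more than 2-fold. Among these, the dim genes MSX1 and SHOX2 were inside 2-fold under the normexp correction, at -0.48 and 0.34. PRRX2, the nearest relative of PRRX1, was lower by a like amount, at 2503 and 919, a log2 ratio of -1.45 ± 0.20. PITX1, which acts upstream of TBX4 in the hindlimb, was higher at 15005 and 39252, a log2 ratio of 1.39 ± 0.20. Of 10 bHLH and zinc finger factors, 7 had a ratio with a median of -0.01. Among them SNAI1, a repressor of epithelial genes, had a log2 ratio of -1.23 ± 0.20 and ZEB1 one of -0.74 ± 0.20, while SNAI2 was at -0.01 and ZEB2 at 0.16. The medians of the forkhead, homeobox, and bHLH and zinc finger lists lay near 0, and each changed sign under at least 1 alternative setting, with ranges of -0.05 to 0.27, -0.15 to 0.04 and -0.14 to 0.03.

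The partners of the bHLH members gave a mixed list. E-proteins pair with TWIST1, TWIST2 and TCF21, and ID proteins block this pairing by taking up the E-protein. The E-protein genes TCF3, TCF4 and TCF12 had log2 ratios of 0.17, 0.21 and -0.37 with an error of 0.20 each, whereas all 4 ID genes were lower by more than 3-fold. The median of the 7 genes was -1.87, which is the value of ID4. ID1 had a scaled signal of 22368 with control siRNA and 944 with periostin siRNA, ID3 7224 and 641, ID2 5162 and 957, and ID4 63.2 and 17.3. ID4 was dim, and under the normexp correction it was at -0.75, inside 2-fold, whereas ID1, ID2 and ID3 stayed past 3-fold at -4.51, -2.35 and -3.41. This list was written with the ID values already known.

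Hedgehog genes, which act upstream of FOXF1, had a median log2 ratio of 0.08 over the 12 of 15 that could be measured, with 5 below 0 and 7 above, and the median ranged from -0.05 to 0.13 over the settings. The readouts of the pathway lay near 0 or were slightly lower, with GLI1 at 0.04 ± 0.21 and PTCH1, the receptor that hedgehog signalling induces, at -0.54 ± 0.21. The transcription factors GLI2 and GLI3 were at 0.12 and 0.66, the signal transducer SMO at 0.51 and SUFU, an inhibitor of the pathway, at 0.73. These values are from the brightest probe. With all probes of a gene averaged, GLI2, with 4 probes, was at -0.38 and SUFU, with 3 probes, at 0.24. SHH and KIF7 were at -0.12 and -0.18. Of the co-receptors, CDON was at 0.14 ± 0.44, with signals of 8.03 and 8.85 close to the lowest signals well above background. BOC was lower at -1.12 ± 0.22 and GAS1 was higher at 2.96 ± 0.28, with GAS1 signals of 12.7 in the control and 99.01 after periostin siRNA. GAS1 was the only hedgehog gene past 3-fold. Both BOC and GAS1 were dim, and the normexp correction gave 1.12 for GAS1 and -0.53 for BOC. HHIP, IHH and DHH were below background on both arrays.

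Growth signals and readouts tied to the T-box factors and FOXF1 were mostly higher. Of 10 genes, 7 had a ratio, with a median of 0.54, 6 above 0 and 1 below, while 45.5% of all genes lay below 0. BMP4, a ligand of the distal lung mesenchyme, was at 1103 with control siRNA and 3881 with periostin siRNA, and its log2 ratio of 1.82 ± 0.20 was past 3-fold. FGF9 was at 1.34 ± 0.20, WNT2B at 0.64 ± 0.23 and FGF7 at 0.54 ± 0.20. WNT2B was dim, at 29.9 and 46.7, and the normexp correction gave 0.30 for WNT2B and 1.04 for FGF9. LEF1 and AXIN2, readouts of Wnt signalling, were at 0.45 each, and RSPO3 was at -0.07. LEF1 stayed between 0.33 and 0.50 over the settings. AXIN2 was dim, at 43.2 and 59.0, and was at 0.06 with the mean over its 2 probes and 0.22 under the normexp correction. FGF10 and WNT2, through which TBX4 and TBX5 act in lung branching, were not well above background on either array, with FGF10 at 5.12 and 7.26 and WNT2 at 5.73 and 6.07, and RSPO2 was below background as well.

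**Figure D4:**
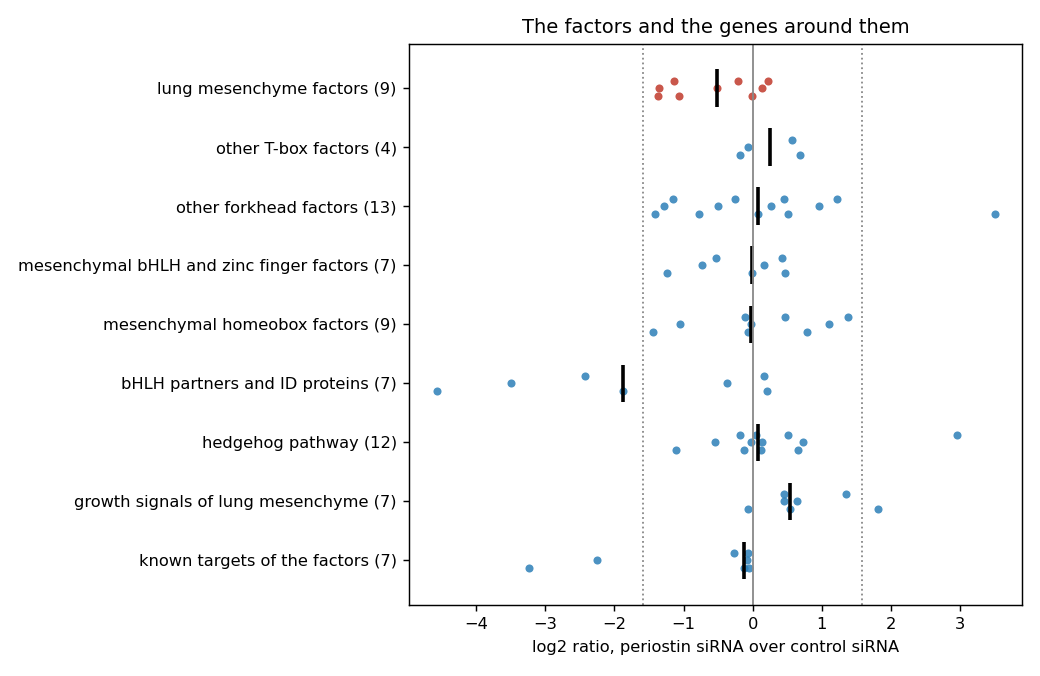
log2 ratio (periostin over control siRNA) for the 9 measured factors (red) and for the measured genes of 8 related lists (blue), with the number of genes in brackets; black bars are medians and dotted lines mark 3-fold. The medians of most lists lie near 0, that of the factors at -0.51 and that of the bHLH partners and ID proteins at -1.87.

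Most genes of a list of known targets of the factors and genes related to these lay near 0. CDKN1A and CDKN2A, inhibitors of the cell cycle that TBX2, TBX3 or MEOX2 are known to regulate, and CDKN2B, the neighbour of CDKN2A with a like role, had log2 ratios of -0.07, -0.12 and -0.08, each within its spot error. CDKN1A gave 2625 with control siRNA and 2509 with periostin siRNA, while TBX2 was lower. TNC, a matrix glycoprotein that PRRX1 activates, was at -0.28 ± 0.20 and FN1, fibronectin, at -0.05 ± 0.20. CDH2, the N-cadherin that TWIST1 raises, was at 1869 and 393, a log2 ratio of -2.25 ± 0.20, past 3-fold. CDH1, the E-cadherin that TWIST1 and SNAI1 repress, was not well above background on either array. The median of the 7 measured genes of this list, POSTN included as a gene that TWIST1 activates, was -0.12. The 2 genes lower by more than 3-fold were CDH2 and POSTN. POSTN is the siRNA target, so its ratio says nothing about TWIST1.

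Markers of the cell types were read beside these values. All 10 fibroblast markers were well above background, with a median log2 ratio of -0.10, summed signals of 368843 and 325951, of which VIM gave 189263 and 174022, and none past 2-fold. PDGFRA, a receptor of lung fibroblasts, was the lowest of them at -0.90. Of 6 smooth muscle markers, 5 were measured and had a ratio above 0. ACTG2, LMOD1 and SYNPO2 were past 3-fold, at 2.83, 2.47 and 1.89, of which SYNPO2 was at 1.01 under the normexp correction. The summed signal of 10659 with control siRNA and 61024 with periostin siRNA came mostly from the ACTG2 probe, at 7266 and 51724, while MYH11 was not well above background on either array. Of 10 epithelial markers, 7 had a ratio or bound, 6 above 0 and 1 below, with a median of 0.66. The summed signal was 4169 and 6195, with KRT18 at 3048 and 4264 the brightest probe. EPCAM was at 34.6 and 135 and CLDN18, the one below 0, was at least 3.18-fold lower, but neither was past 3-fold under the normexp correction, at 1.08 and -0.28. NKX2-1, CDH1 and SFTPB were below background on both arrays. Of 7 endothelial markers, 5 had a ratio or bound, between -0.33 and 0.15, and PECAM1 and ERG were below background, with summed signals of 5626 and 5337, of which TEK gave 5457 and 5175. Of 5 mesothelial markers, WT1, MSLN and LRRN4 were below background, CALB2 was at 2.10, or 1.53 under the normexp correction, and the sums were 147 and 414, of which CALB2 gave 80.7 and 346. Of 8 immune markers, 5 had a ratio or bound, between 0.34 and 0.94, with sums of 1850 and 3056, mostly from CD68 at 1528 and 2451, and LAPTM5, HLA-DRA and MS4A1 were below background. The part of these genes in the lower values of TBX2, TBX4, TCF21 and PRRX1 was not tested, and in RNA of a whole culture fewer cells of a type and less RNA per cell cannot be told apart.

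Over 12 alternative settings the log2 ratio ranged from -1.50 to -1.33 for PRRX1, from -1.26 to -1.09 for TCF21 and from -1.20 to -1.02 for TBX2, all computed from the same spot of each gene, so these ranges do not cover the spot error. FOXF1 ranged from -0.34 to -0.17. TBX4 ranged from -1.48 to -0.40 and TWIST2 from -0.32 to 0.18, which are the widest ranges among the 9. TBX3 stayed between 0.10 and 0.27, and TBX5 between -0.14 and 0.04.

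**Figure D5:**
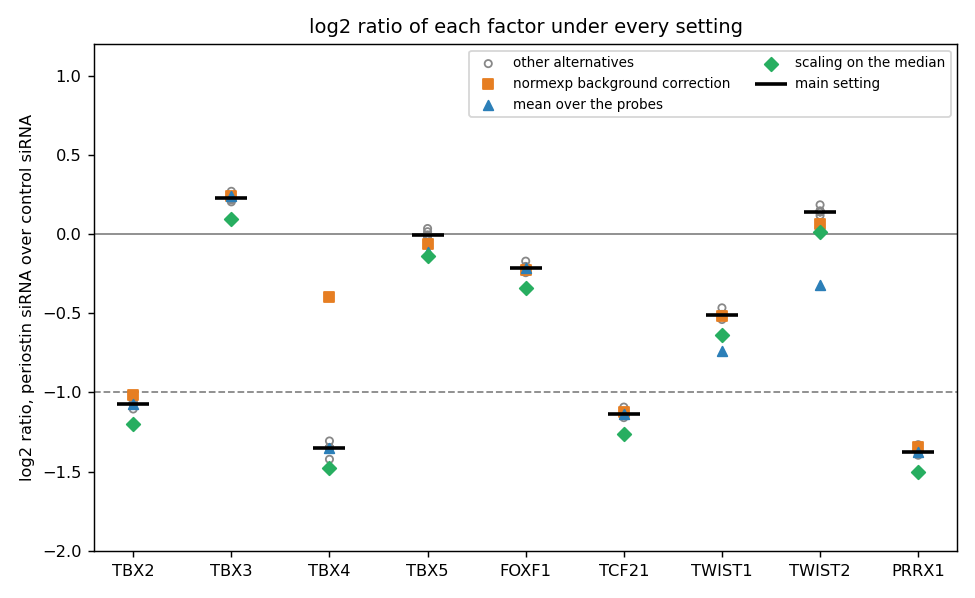
log2 ratio (periostin over control siRNA) of each measured factor in the main setting (black bars) and under 12 alternatives, of which the normexp correction (squares), the mean over all probes of each gene (triangles) and scaling on the median (diamonds) are marked; the dashed line is 2-fold. TBX4 under the normexp correction and TWIST2 under the mean over probes stand furthest from the main values.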

How the data were processed

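The authors deposited the Feature Extraction file of each array, whose intensity values the program had background-subtracted and detrended without scaling between arrays. The file headers name version 11.5.1.1 and an hg19 design, whereas the labels name 12.0.3.1. The 0 and 1 flags of the deposited files mark spots well above background, outliers and saturation. A further deposited table holds normalized intensity values and for 49697 probes printed once equals the scanner signal times 3.65 (control siRNA) or 3.54 (periostin siRNA).

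Here the log2 processed signal of 58717 non-control spots was shifted so that the 75th percentile of both arrays, 372 and 383, became 377. Repeat spots were averaged as log2 values, and the brightest probe stood for a gene. A probe detected on a single array gave a bound, taken against its own dim signal or, if that was lower, the faintest signal detected there. Of the spots, 65.1% were named through the RefSeq annotation of GRCh38.p14, used for names and gene order. Signals were well above background for 58.0% and 58.9% of the spots, and 1 array per condition limits the precision.

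The factors and lists were chosen with earlier results of these data known. Genes named were the 10 factors, POSTN, genes of the lists past 3-fold, and genes of the hedgehog, growth signal, partner and target lists well above background on both arrays. One gene that this rule names is not reported here. Other genes, the markers among them, were named after their values were seen. The scaling was tested on simulated data. Python 3.11.15, numpy 2.4.6, pandas 2.3.3, R 4.3.3 and limma 3.58.1 (normexp, quantile and loess) were used. The alternatives were other background corrections, scalings, filters, probe rules, thresholds and the authors' table. The qRT-PCR and proliferation experiments were not analysed here.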

Additional observations from a re-analysis of the deposited data

How the results depend on the processing

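No paired analysis was possible because there was 1 array for each siRNA, which also left no replicate to omit. TBX2, TBX4, FOXF1, TCF21, TWIST1 and PRRX1 were below 0 and TBX3 was above 0 under each of the 12 alternatives run. TBX5 was above 0 in 2 of them and TWIST2 below 0 in 1. TBX2, TBX4, TCF21 and PRRX1 had 1 probe on 1 spot each, so the filters and the probe and spot rules could not change their ratios. The scaling settings and the authors' table add about the same constant to every gene. The agreement of these genes over the alternatives was thus largely fixed in advance. The number of factors past 3-fold stayed at 0 in each direction, whereas a threshold of 2-fold gave 4 lower, against 6.42% of all genes. The normexp correction left 3 factors lower by more than 2-fold, since TBX4 moved to -0.40. With this correction 3.37% of all 16026 genes were lower by more than 2-fold. It also gave a median of -0.75 for the bHLH partners and ID proteins, the value of ID4. With all probes of a gene averaged, the median of the factors was -0.74, TWIST1 also -0.74 and TWIST2 -0.32. Scaling on the median shifted all genes by -0.13 and gave -0.34 for FOXF1. With no filter on background the median of the other T-box factors was 0.0059. Of the genes past 3-fold, 55.1% were higher in the main setting, 42.9% under the normexp correction. TBX4 and the dim probe of TWIST1 are limited by their signal over background, and the cause of these shifts was not tested.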

Other observations

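Genes beside the factors, chosen after the values of the factors had been seen, had ratios closer to 0 than those of TBX2 and TBX4. TBX2-AS1, a long non-coding gene beside TBX2, had a pair of probes with log2 ratios of -0.14 and -0.12, against -1.07 for TBX2, and the probes were not placed on the genome here. Within 500 kb of TBX2 and TBX4 on chromosome 17, 5 other genes had a ratio, from -0.21 to 0.75 with BCAS3 the highest, and none was lower by more than 2-fold. On chromosome 12 the other genes with a ratio around TBX3 and TBX5 were RBM19 at -0.64 and TBX5-AS1 at -0.28. FENDRR, the long non-coding gene next to FOXF1, had 10 probes with log2 ratios from -0.12 to 0.39 and a median of 0.01, 4 below 0 and 6 above, and its brightest probe was at 0.02 against -0.21 for FOXF1.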
